A study of Mus musculus with 12 samples.

Results

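Complement is a set of plasma and cell-surface proteins that tags microbes and dying cells, and 8 of its genes were followed here in mouse macrophages: the 3 chains of C1q (C1qa, C1qb and C1qc), C3, factor B (Cfb), properdin (Cfp) and the receptors C3ar1 and C5ar1. The members were taken by gene symbol from tables of 23361 symbols (23847 rows), and all 8 were among the 11191 rows that reached 1 FPKM (fragments scaled to the length of the transcript and to the number of mapped fragments) in at least 1 sample. Poly-A RNA was sequenced from BMDMs, macrophages derived in culture from bone marrow. The marrow came from wild-type mice aged 8 to 12 weeks, on a C57BL/6 background per the study's methods, and all cells were differentiated for 6 days with L929 supernatant, a source of M-CSF. The 4 groups of 3 samples each were control BMDMs with no further agent, BMDMs that spent 24 hours in 20 ng/ml IL-4, BMDMs that spent 3 hours in LPS at 100 ng/ml, and IL-4-pretreated BMDMs, which had the same 24 hours of IL-4 before the 3 hours of LPS. The study's methods give the LPS dose in nM instead of ng/ml. The study describes its LPS RNA-seq fold changes as averages over 3 animals from separate experiments. With 3 samples a group, the same animals may have supplied every group. Neither the study nor the labels tie a sample to an animal or experiment. The main fit is therefore unpaired, and its p-values measure the spread between these samples. In bulk RNA, fewer cells expressing a gene and less RNA per cell cannot be told apart.

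C1q recognises antibody-coated or apoptotic targets and starts the classical pathway, and its 3 chains are made largely by macrophages rather than by the liver. All pathways meet at C3, whose cleavage leaves C3b on the target. Factor B joins C3b to form the alternative pathway's convertase, an enzyme that properdin stabilises, so the loop amplifies itself. The small fragments C3a and C5a are sensed through C3ar1 and C5ar1, G protein-coupled receptors on myeloid cells. IL-4 and LPS are standard stimuli of alternative and inflammatory macrophage activation, and the comparisons ask how each one, and IL-4 given before LPS, changed these genes.

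The 12 tables held no read counts. The lowest FPKM values moved in whole steps, which gave the samples' relative depth, and this spanned from 1 to 3.33 times that of the shallowest sample. Replicate 1 was the shallowest of its group in all 4 groups. Of 8 macrophage markers 7 were in the tables, none was under 1 FPKM throughout, and Csf1r, the M-CSF receptor, ranged from 411 to 932 FPKM. The summed macrophage markers were 19095 to 20482 FPKM in control, 7517 to 7725 with IL-4, 15300 to 16472 with LPS and 6447 to 6799 with both agents, of which Lyz2 (lysozyme) made up most. The T cell list summed to 9.62 to 11.7 FPKM in control, 0.496 to 0.810 with IL-4, 6.12 to 6.77 with LPS and 0.277 to 0.451 with both agents, nearly all of it Cd4, while the CD3 chains Cd3d, Cd3e and Cd3g never exceeded 0.197 FPKM. The B cell list summed to at most 4.36 FPKM, mostly Cd79b, and stromal and NK cell markers to at most 0.23 and 0.19 FPKM. The 6 neutrophil granule genes in the tables summed to 92.0 to 178 FPKM in control, 52.1 to 95.3 with IL-4, 93.0 to 212 with LPS and 79.5 to 158 with both agents, lowest in replicate 1 of every group. Replicate 1 stood apart for several members, so values without it are given where they change a member's call. Fits without replicate 1 in any group hold replicates 2 and 3 only. Leaving out samples because they stand apart can make the spread look too small, so those p-values are not stronger evidence than the main fit.

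The genes lie in 6 places of the mm10 genome, all on the minus strand and all protein-coding in the annotation. The C1q chains sit side by side on chromosome 4, in the order C1qb, C1qc, C1qa, within 18.7 kb (chr4:136880145-136898844), with 3 exons each. C3 (chr17:57203973-57228136) has 41 exons and Cfb (chr17:34856374-34862514) has 18 exons. Cfp (chrX:20925535-20931524) has 9 exons, C3ar1 (chr6:122847140-122856157) has 2 and C5ar1 (chr7:16246743-16259540) has 3. The bases before the transcription start could be read for 6 of the 8 members from RefSeq (GRCm38.p6), and C1qa and Cfb had no entry. The stretches shown are those of C3, the component with the large LPS response, and of C1qb and C1qc, the most abundant chains, each 5′ to 3′ on the minus strand. The C3 and C1qb stretches run from -250 to -1 relative to the RefSeq start, and that of C1qc from -250 to -152, because the 151 bases nearest the start lie inside a transcript in the annotation and are not printed. Capitals mark a C/EBP match (TTGCNNAA) in C3 and an ETS match of the kind bound by PU.1 (AGGAAGT, here on the opposite strand) in C1qb and C1qc. The C3 stretch is chr17:57228137-57228386, the C1qb stretch chr4:136886201-136886450 and the C1qc stretch chr4:136893066-136893164.
C3: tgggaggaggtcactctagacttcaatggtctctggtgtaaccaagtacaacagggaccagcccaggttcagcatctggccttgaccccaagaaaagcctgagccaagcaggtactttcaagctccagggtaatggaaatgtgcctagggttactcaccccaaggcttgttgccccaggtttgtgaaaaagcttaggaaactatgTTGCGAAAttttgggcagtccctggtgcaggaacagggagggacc
C1qb: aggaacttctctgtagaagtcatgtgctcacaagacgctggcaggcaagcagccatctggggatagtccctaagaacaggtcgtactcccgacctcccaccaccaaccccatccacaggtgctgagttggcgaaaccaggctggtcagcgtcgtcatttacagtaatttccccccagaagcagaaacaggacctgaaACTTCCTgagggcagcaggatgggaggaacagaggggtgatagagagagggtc
C1qc: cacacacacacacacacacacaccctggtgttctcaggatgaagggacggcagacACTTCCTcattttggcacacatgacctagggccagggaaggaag

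Of 6 motifs searched on both strands of the 250 bases before the start, the C/EBP letters were found only in C3 among the 6 members, at -45 to -38, and in 9.56% of 32851 promoters. The ETS letters were found in C1qb (-53 to -47), in C1qc (-195 to -189) and at 2 places in C5ar1, against 7.69% of all promoters. The C5ar1 window begins at chr7:16259339, short of the end of the C5ar1 locus at 16259540. Both C5ar1 matches (-190 to -184 and -72 to -66) therefore lie inside that locus. A kappaB match lay in C1qc at -41 to -32, outside the printed stretch (3.9% of promoters). The interferon element, GAAA and GAAA with 2 bases between them, was in none of the 6 windows and in 2.98% of promoters. The STAT letters TTC and GAA, searched with 4 bases between them as STAT6 prefers (5.85% of promoters) and with 3 (7.02%), were in none of them either. No match in the 6 windows overlapped another.

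In resting BMDMs the C1q chains, properdin and the receptors were abundant, and C3 and Cfb were not. On the FPKM scale, which corrects for transcript length, C1qb ranked 18th of 11191 rows in control, C1qc 31st, Cfp 105th and C1qa 107th. C3ar1 was 207th and C5ar1 369th, whereas C3 was 3931st and Cfb 9985th. After LPS, C3 stood 475th and Cfb 2039th. The plot of the members' values by sample shows these levels.

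**Figure D1:**
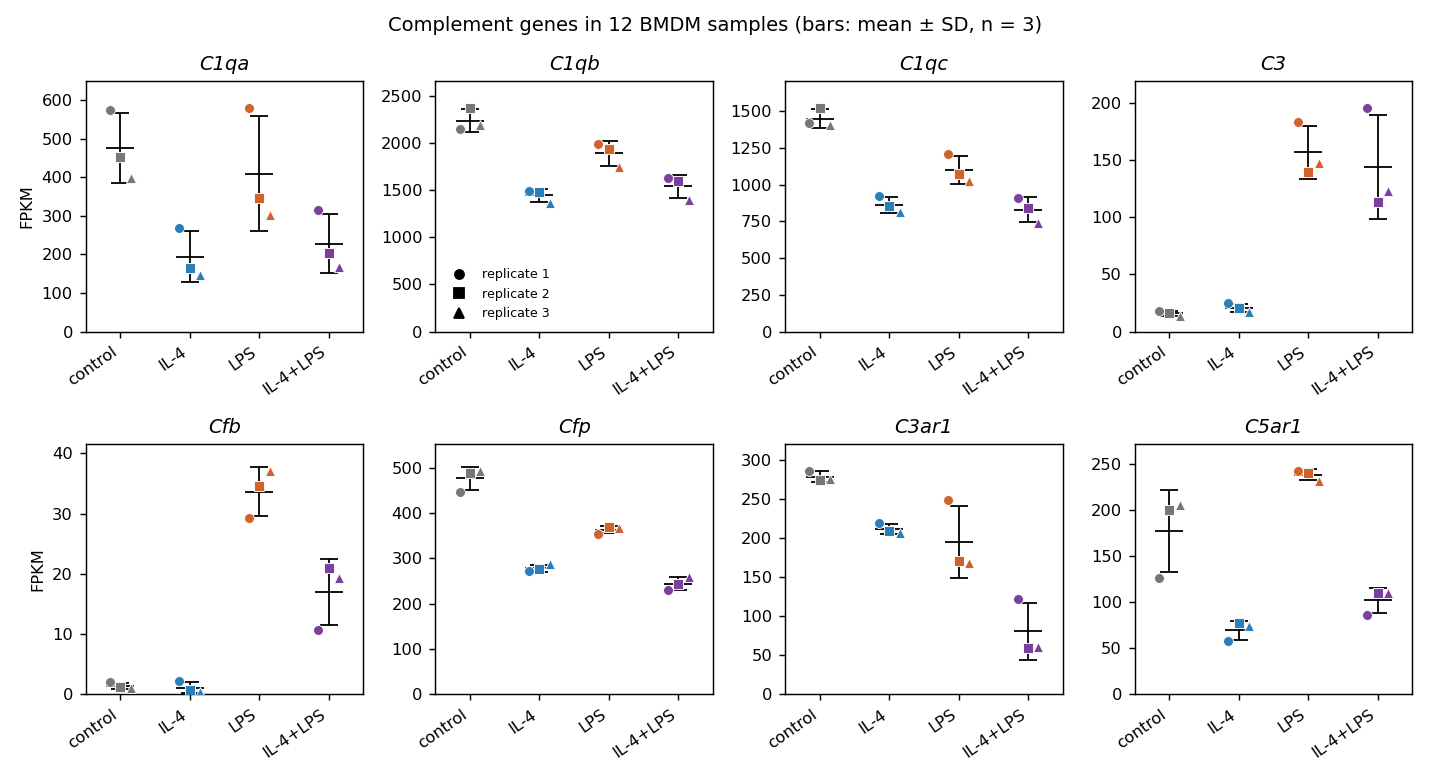
FPKM of each complement gene (vertical axes, from 0) in the 12 BMDM samples by group, with points for the 3 samples, bars for the mean ± SD (n = 3) and a marker shape for each replicate number. C3 and Cfb are near the bottom in control and IL-4 and high with LPS, while C1qa, C1qb, C1qc, Cfp and C5ar1 are lower in the IL-4 group than in every control sample.

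IL-4 alone lowered the C1q chains, properdin and the C5a receptor. All 5 were called lower and none of the 8 was called higher, where 21% of all tested rows were lower and 16% higher with IL-4 (37% in either direction). The statistic throughout is limma's moderated test on log2(FPKM + 1), with Benjamini-Hochberg adjustment over the 11191 rows and a threshold of 0.05, and its fold changes are on that scale. These 5 calls held in every one of 23 alternative fits. The summed macrophage markers were lower with IL-4 too, with mean Csf1r at 909 FPKM in control and 629 FPKM with IL-4 and mean Cd68 at 1779 and 1538 FPKM, and their part in these falls was not tested.

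C1qa measured 576, 452 and 399 FPKM in control replicates 1, 2 and 3, and 269, 166 and 147 FPKM with IL-4. The groups did not overlap, and replicate 1 was the highest in both. The log2 fold change was -1.32 ± 0.31 (SE, adjusted p = 0.00771). C1qb went from 2141, 2370 and 2188 FPKM in control to 1487, 1474 and 1363 FPKM with IL-4. Here too every IL-4 sample lay below every control sample, with little spread inside a group. The log2 fold change of C1qb was -0.63 ± 0.08 (SE, adjusted p = 0.000234). C1qc behaved in the same way, at 1421, 1524 and 1407 FPKM in control and 923, 853 and 812 FPKM with IL-4, with a log2 fold change of -0.75 ± 0.09 (SE, adjusted p = 0.000144).

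LPS alone moved the C1q chains little. C1qa was 581, 348 and 302 FPKM with LPS, a range that overlapped control, and its log2 difference of -0.26 did not pass the test (95% interval -0.95 to 0.44, adjusted p = 0.474). Without replicate 1 in any group C1qa was called as lower with LPS (-0.39, adjusted p = 0.0242). C1qb was 1992, 1930 and 1742 FPKM and C1qc was 1206, 1071 and 1028 FPKM, both below control in every sample. The log2 fold changes were -0.24 for C1qb (adjusted p = 0.0215) and -0.40 for C1qc (adjusted p = 0.00238). The median of all tested rows shifted by -0.44 in this comparison, so both chains fell less than, or about as much as, the middle row, and with the samples scaled to a common median C1qb stood at 0.13 and C1qc at -0.03, neither called. The C1qb call was also lost without control replicate 2 (-0.20, adjusted p = 0.0867) or LPS replicate 3 (-0.19, adjusted p = 0.0897), with no expression filter (adjusted p = 0.147) and in a per-gene Tukey test.

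In IL-4-pretreated cells no chain passed the test for a further change with LPS. IL-4-pretreated BMDMs with LPS held 315, 204 and 166 FPKM of C1qa, 1623, 1596 and 1393 FPKM of C1qb, and 908, 843 and 743 FPKM of C1qc. All 3 chains overlapped the IL-4 group, and none was called against it, with log2 differences of 0.23, 0.09 and -0.06. The 95% intervals of these differences were -0.46 to 0.93 for C1qa, -0.09 to 0.28 for C1qb and -0.26 to 0.15 for C1qc. Against a median of -0.41 for all rows this is a relative position, and it turned with the scaling: under median scaling C1qb rose (0.45, adjusted p = 0.000554) and C1qc rose (0.31, adjusted p = 0.0109), whereas under quantile normalization C1qc fell (-0.31, adjusted p = 0.0169). Against LPS alone, C1qb (-0.30, adjusted p = 0.0206) and C1qc (-0.41, adjusted p = 0.00689) were lower with both agents, and C1qa (-0.83, adjusted p = 0.0682) missed the threshold, passing it without IL-4+LPS replicate 1 (-1.09, adjusted p = 0.0256), without IL-4 replicate 1 (adjusted p = 0.0498) and without replicate 1 in all groups (-0.81, adjusted p = 0.00245). The call for C1qb in this comparison was lost without LPS replicate 1 (-0.26, adjusted p = 0.0701), LPS replicate 2 (-0.28, adjusted p = 0.0655) or IL-4+LPS replicate 3 (-0.23, adjusted p = 0.084), and with no expression filter (adjusted p = 0.155). With these 2 groups alone in the fit neither C1qb (adjusted p = 0.114) nor C1qc (adjusted p = 0.0527) passed.

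The 3 chains assemble in equal number in the protein, but their transcripts differed in level and in their ratio. The C1qa to C1qb ratio of FPKM was 0.269, 0.191 and 0.183 in control and 0.181, 0.112 and 0.108 with IL-4. Every IL-4 sample was below every control sample, though replicate 1 of IL-4 came close to replicate 3 of control. The difference of -0.70 on the log2 scale had p = 0.1 in an exact two-sided permutation test, which is the smallest that 3 against 3 samples allow, and 0.25 after adjustment over 20 ratio comparisons. The C1qc to C1qb ratio ranged from 0.528 to 0.664 over the 12 samples, and its mean was lowest with both agents. Samples with both agents overlapped those with LPS alone (exact permutation p = 0.2, 0.333 adjusted over 20 comparisons). The plot of ratios within a sample gives these values.

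**Figure D2:**
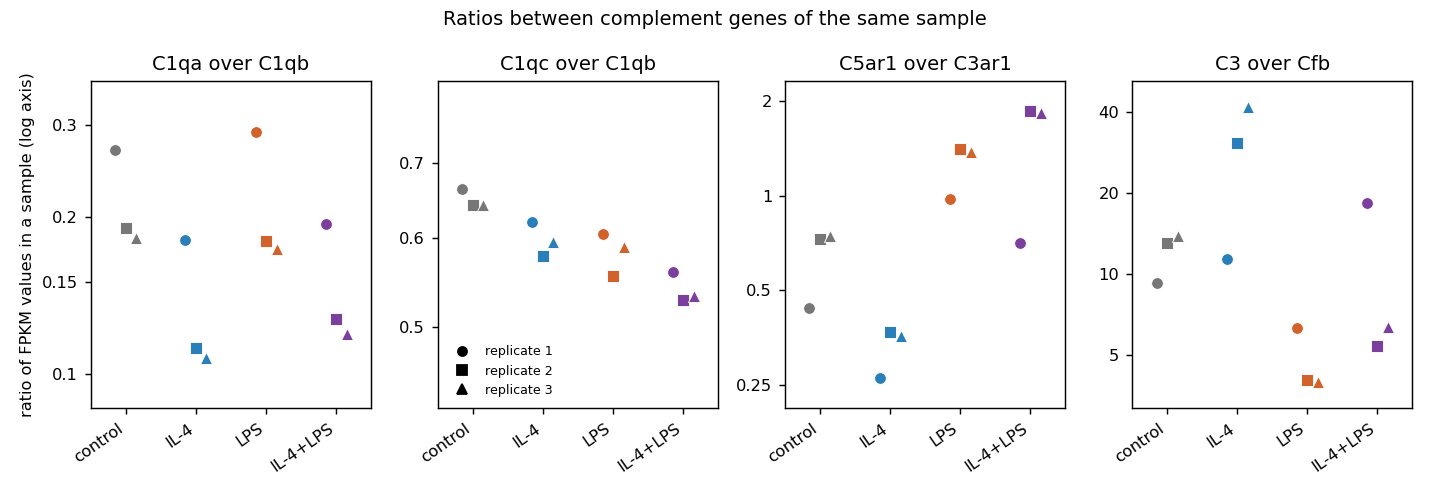
Ratio of FPKM values of 2 complement genes in the same sample (vertical axes, log scale), by group, with a marker shape for each replicate number and 3 points a group. C1qa over C1qb is lower in both IL-4-treated groups for each replicate number, and C5ar1 over C3ar1 runs from 0.263 in an IL-4 sample to 1.86 in a sample with both agents.

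C3 and factor B made the strong LPS response of this set. In LPS against control 3 members were higher and 3 lower, where 16.9% of all rows were higher and 57.7% lower (74.6% in either direction), so the count of 6 called members is itself near the share of all rows. C3 measured 18.1, 16.0 and 13.6 FPKM in control and 183, 140 and 147 FPKM with LPS. No LPS sample came near a control sample, and the means differed 9.86-fold. The log2 fold change of C3 was 3.22 ± 0.21 (SE, adjusted p = 2.82e-07). Cfb measured 1.96, 1.23 and 0.983 FPKM in control and 29.2, 34.6 and 37.1 FPKM with LPS. The ratio of means was 24.2, and on the log2(FPKM + 1) scale, which understates the change of a gene this low, the difference was 3.87 ± 0.31 (SE, adjusted p = 1.42e-06). Both calls held in all 23 alternatives.

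IL-4 by itself did not pass the test for C3, with 24.7, 20.3 and 17.2 FPKM (log2 difference 0.36, 95% interval -0.10 to 0.82, adjusted p = 0.209), nor for Cfb, with 2.17, 0.663 and 0.414 FPKM (-0.27, 95% interval -0.97 to 0.43, adjusted p = 0.541). Both overlapped control. Without replicate 1 in any group both were called, C3 as higher (0.32, adjusted p = 0.0382) and Cfb as lower (-0.45, adjusted p = 0.0113).

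The LPS response of both genes was present after IL-4. C3 reached 196, 113 and 123 FPKM with both agents, which overlapped LPS alone, and its log2 fold change over IL-4 was 2.71 ± 0.21 (SE, adjusted p = 1.15e-06). Against LPS alone C3 did not pass the test (-0.16, 95% interval -0.62 to 0.31, adjusted p = 0.622). Cfb reached 10.7, 20.9 and 19.4 FPKM, all below the LPS samples, and rose by 3.15 ± 0.31 over IL-4 (SE, adjusted p = 7.64e-06). With both agents the mean of Cfb was 0.505 of that with LPS alone, at 17.0 ± 5.54 against 33.6 ± 4.05 FPKM (SD, n = 3), a log2 difference of -0.99 (adjusted p = 0.0354). This call was fragile: without IL-4+LPS replicate 1, the lowest sample, the difference was -0.71 (adjusted p = 0.104), and it was lost as well without any 1 of the LPS samples (adjusted p 0.0523 to 0.102), without IL-4+LPS replicate 3 (adjusted p = 0.0531) or control replicate 2 (adjusted p = 0.0501), with a pseudocount of 0.1 (-1.04, adjusted p = 0.126), with no expression filter (adjusted p = 0.110) and in a per-gene Tukey test. It held without replicate 1 in any group (-0.80, adjusted p = 0.00114).

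In the annotation, 81.4% of the 50-base words of the factor B transcripts also occur in Gm20547. That gene reads through C2 into Cfb (chr17:34856412-34882042). Within 5 kb of Cfb the quantified rows were only those of C2 and Nelfe, so no Gm20547 row there divided its reads. C2, the neighbour of Cfb 88 bases away and the classical pathway's counterpart of factor B, never exceeded 0.179 FPKM. The ratio of C3 to Cfb was 9.21, 13.1 and 13.8 in control and 6.28, 4.04 and 3.96 with LPS, so every LPS sample lay below every control sample (exact permutation p = 0.1, the smallest these groups allow, 0.25 adjusted over 20 comparisons).

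Properdin did not follow C3 and Cfb. Cfp measured 447, 488 and 494 FPKM in control, 272, 276 and 287 with IL-4, 354, 369 and 367 with LPS, and 230, 243 and 258 with both agents. The 4 groups did not overlap at any step, in the falling order control, LPS, IL-4, and both agents. Cfp fell with IL-4 by 0.77 ± 0.06 on the log2 scale (SE, adjusted p = 7.87e-06) and was lower with both agents than with LPS alone (-0.57, adjusted p = 6.74e-05), and both calls held in all 23 alternatives. The steps with LPS were smaller than or near the shift of all rows: -0.39 from control (adjusted p = 0.000219) and -0.19 from IL-4 (adjusted p = 0.0184). Under median scaling the first became -0.02 and was no longer called, and the second turned to 0.17 (adjusted p = 0.0419). The call against IL-4 was also lost without IL-4 replicate 3 (-0.17, adjusted p = 0.0661) or IL-4+LPS replicate 1 (-0.15, adjusted p = 0.0618).

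**Figure D3:**
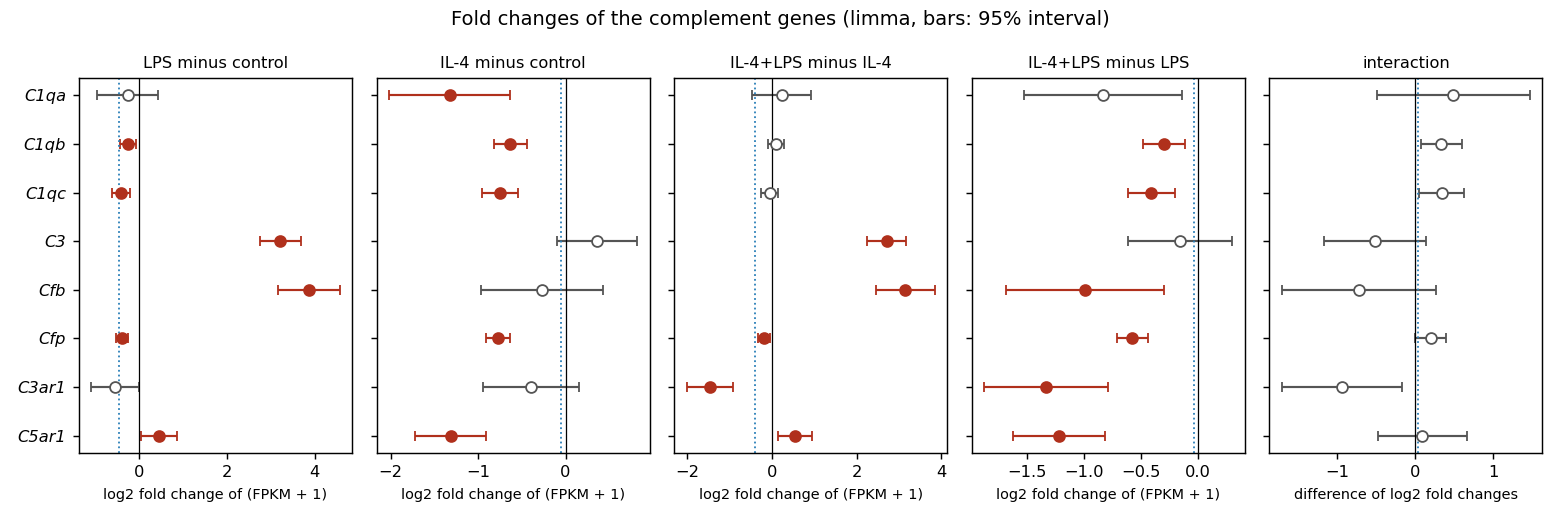
Log2 fold change of the 8 complement genes in each of 4 comparisons, and in the last panel the difference between the LPS responses with and without IL-4 (interaction), with 95% intervals from limma. Filled red points have an adjusted p under 0.05, open points do not, and the dotted blue line is the median of all 11191 rows, which lies at -0.44 for LPS minus control and at -0.41 for IL-4+LPS minus IL-4.

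The C3a and C5a receptors took separate courses. C3ar1 measured 287, 275 and 275 FPKM in control, 219, 209 and 207 with IL-4, and 249, 170 and 168 with LPS. Both single-agent groups lay below control in every sample, yet neither was called, with log2 differences of -0.40 for IL-4 (95% interval -0.94 to 0.15, adjusted p = 0.239) and -0.53 for LPS (95% interval -1.08 to 0.01, adjusted p = 0.0704). Without replicate 1 in any group both were, at -0.40 (adjusted p = 0.000135) and -0.70 (adjusted p = 2.9e-06). Leaving out IL-4+LPS replicate 1 alone gave adjusted p = 0.0357 for IL-4 and 0.00397 for LPS, and leaving out LPS replicate 1 alone gave -0.72 for LPS (adjusted p = 0.0279). With only the compared groups in the fit both were called as well (adjusted p = 0.00254 for IL-4 and 0.0235 for LPS), and under quantile normalization the LPS difference was -0.76 (adjusted p = 0.0257). With both agents C3ar1 was 122, 58.9 and 60.1 FPKM, below every sample of either agent alone. Against IL-4 it fell by 1.47 ± 0.25 on the log2 scale (SE, adjusted p = 0.000307), and it was lower than with LPS alone (-1.33, adjusted p = 0.00215), and both calls held in all 23 alternatives.

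C5ar1 measured 126, 200 and 205 FPKM in control and 57.5, 77.1 and 73.8 FPKM with IL-4. The groups were apart, and C5ar1 fell by 1.31 ± 0.18 on the log2 scale (SE, adjusted p = 0.000327). With LPS it was 243, 240 and 231 FPKM, above every control sample, and the fold change of 0.46 passed the test (adjusted p = 0.041) against the downward shift of the middle row. That call changed with the samples in the fit. Without control replicate 1, the lowest of its group, the difference was 0.23 and was not called (adjusted p = 0.151), whereas without replicate 1 in any group it was 0.22 and was called (adjusted p = 0.00199). The call was also lost without any 1 LPS sample (adjusted p 0.0714 to 0.0865), without IL-4 replicate 3, IL-4+LPS replicate 2 or IL-4+LPS replicate 3 (adjusted p 0.0508 to 0.0524), under quantile normalization (0.28, adjusted p = 0.153), with no expression filter (adjusted p = 0.108), with the 2 groups alone in the fit (adjusted p = 0.072) and in a per-gene Tukey test. After IL-4, LPS raised C5ar1 to 86.4, 109 and 110 FPKM, a step of 0.55 (adjusted p = 0.019) that left it below all control samples. It was lost without IL-4 replicate 1 (0.42, adjusted p = 0.0754), IL-4+LPS replicate 2 (0.50, adjusted p = 0.0618) or IL-4+LPS replicate 3 (0.49, adjusted p = 0.0639), with no expression filter (adjusted p = 0.0579) and in a per-gene Tukey test. C5ar1 was lower with both agents than with LPS alone (-1.22, adjusted p = 0.000572) in all 23 alternatives.

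The balance of the 2 receptors moved accordingly. The C5ar1 to C3ar1 ratio of FPKM was 0.440, 0.727 and 0.745 in control and 0.263, 0.369 and 0.356 with IL-4. It was 0.975, 1.41 and 1.38 with LPS and 0.708, 1.86 and 1.83 with both agents. IL-4 and LPS alone each gave ratios that did not overlap control, on opposite sides, with log2 differences of -0.93 and 1.00 and exact permutation p = 0.1 for both (0.25 adjusted over 20 comparisons). Replicate 1 was the lowest of its group in each case.

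Counted over the set, IL-4 before LPS lowered 6 members against LPS alone and raised none, where 15.8% of all rows were lower and 15% higher (30.9% in either direction). In IL-4+LPS against IL-4, 3 members were higher and 2 lower, where 15% of rows were higher and 57.9% lower (72.9% in either direction). These comparisons share groups, so their values are not independent of each other. Samples of the 2 groups did not overlap for 7 members in LPS against control (76.6% of all rows), for 6 in IL-4 against control (51.6%), for 5 in IL-4+LPS against IL-4 (74.6%) and for 6 in IL-4+LPS against LPS (42.2%).

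An interaction term compared the LPS step after IL-4 with that in untreated cells, and 0 of the 8 members passed, where 9.2% of all rows did (4.58% higher and 4.63% lower). By limma 3 of the 8 had an unadjusted p under 0.05, namely C3ar1 (-0.94, adjusted p = 0.126), C1qb (0.33, adjusted p = 0.111) and C1qc (0.34, adjusted p = 0.135). Among all 11191 tested rows, 2703 had an unadjusted interaction p under 0.05. For C3ar1 the outcome turned on replicate 1: without IL-4+LPS replicate 1 the interaction was -1.28 (adjusted p = 0.00314), and without replicate 1 in any group it was -1.09 (adjusted p = 7.6e-05). The SE of C3ar1 was 0.0451 in the latter fit, against 0.3475 in the main fit. In that last fit 6 of the 8 members passed, where 25.6% of all rows did rather than 9.2%. The other 5 were C1qa (0.63, adjusted p = 0.0445), C1qc (0.41, adjusted p = 0.0324), C3 (-0.60, adjusted p = 0.0274), Cfp (0.25, adjusted p = 0.0256) and C5ar1 (0.32, adjusted p = 0.00956). In a fit with the replicate number as a block, 6 of the 8 passed too, where 20% of all rows did. For C1qb, C1qc and C5ar1, replicate 1 was not at the same end in every group. The depth, the neutrophil markers, C1qa, C3, C3ar1 and Cfp did have replicate 1 at the same end in all 4 groups, and their part in the result was not tested.

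Members also varied together inside groups. Replicate 1 was the highest of its group in all 4 groups for C1qa, C3 and C3ar1 and the lowest in all 4 for Cfp. Taking each sample's deviation from its group mean on the log2 scale, Pearson's r over the 12 samples was 0.88 between C1qa and C3, 0.86 between C3 and C3ar1 and -0.81 between C1qa and Cfp. These points share replicate numbers and depth, and are a description only. C1qb and C1qc had r = 0.90 with each other.

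Across all 12 samples, other genes followed the members' patterns closely. Among 6696 rows with at least 10 FPKM in some sample, the highest Pearson r was with Ms4a7 for C1qa (0.98), with Apoe, the lipid carrier, for both C1qb (0.96) and C1qc (0.98), and with Aida for C3 (0.99). For Cfb it was Tmem243 (0.99), for Cfp the plexin gene Plxnb2 (0.99), for C3ar1 Ppp6r3 (0.98) and for C5ar1 the transporter gene Slc13a3 (0.98). Apoe averaged 7615 FPKM in control, 3030 with IL-4, 5301 with LPS and 2732 with both agents, the same falling order as Cfp and C1qc. Slc13a3 went from 19.3 FPKM in control to 2.15 with IL-4, 46.3 with LPS and 5.35 with both.

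The wider complement system was mostly silent in these cells. Of 51 further symbols, listed by pathway, 45 were in the tables and 29 of those stayed under 1 FPKM in all samples. Such low levels were common outside complement too, since 11191 of all 23847 rows reached 1 FPKM. Of the 16 tested, 3 were higher and 6 lower with LPS, where 16.9% of all rows were higher and 57.7% lower, and their median log2 fold change was -0.36 against -0.44 for all rows. With IL-4, 2 were higher and 6 lower (16% and 21% of all rows), with a median of -0.13 against -0.05. In IL-4+LPS against LPS, 2 were higher and 8 lower (15% and 15.8% of all rows, medians -0.49 and -0.03), and in IL-4+LPS against IL-4, 2 were higher and 5 lower (15% and 57.9%, medians -0.24 and -0.41). Some low genes entered these counts only through the groups where they were high: C1rb reached 1 FPKM in LPS-treated samples only and Cd55 in 1 LPS sample only, Fcnb only in control and LPS samples, and C5ar2 only in control and IL-4 samples. By limma 0 of the 16 passed the interaction test (9.2% of all rows), and 1 was higher and 4 lower at an unadjusted p under 0.05. Among all 11191 tested rows, 1439 were higher and 1264 lower at that unadjusted p.

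The proteases that C1q activates were low, and C1ra rose with LPS. C1ra went from 1.41 ± 0.25 FPKM in control to 5.80 ± 1.15 with LPS (SD, n = 3, log2 fold change 1.49, adjusted p = 1.13e-05) and C1rb averaged 0.550 FPKM in control and 2.78 with LPS, given without a test because of the filter, and these paralogs share 50.8% and 60.5% of their 50-base words, chiefly with each other, so the division of reads between them is uncertain. C1ra was lower with IL-4 and LPS than with LPS alone, at 3.30 FPKM (log2 -0.67, adjusted p = 0.00979). This call was lost when these 2 groups alone entered the fit (adjusted p = 0.0642). C1rb averaged 1.44 FPKM with both agents, again given without a test. In the lectin branch, Fcnb, a ficolin, averaged 1.34 FPKM in control and 0.197 with IL-4, given without a test because of the filter. Colec12, a collectin scavenger receptor, fell from 7.40 FPKM in control to 5.14 with IL-4 (-0.45, adjusted p = 0.0131). With LPS it fell to 4.43 FPKM (-0.62, adjusted p = 0.000673). Its IL-4 call was lost without control replicate 2 or IL-4 replicate 3 (adjusted p 0.0512 and 0.0521). In the terminal pathway, which builds the membrane pore, only C8g was tested, and it was under 1 FPKM on average in each group and called nowhere.

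Regulators were few. Cr1l (Crry), the membrane regulator of C3 convertases in rodents, lay between 25.5 and 28.1 FPKM in the 4 group means and passed no test. Cd55, decay-accelerating factor, averaged 0.458 FPKM in control and 0.0322 with IL-4. It averaged 0.978 FPKM with LPS and 0.0671 with both agents. Since it reached the filter only with LPS, its levels are given without a test.

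Other complement receptors moved as well. Itgax, the alpha chain of complement receptor 4, rose with IL-4 from 32.1 ± 9.53 to 317 ± 24.8 FPKM (SD, n = 3, log2 fold change 3.30, adjusted p = 1.57e-06), and its partner Itgb2 rose from 446 to 737 FPKM (0.72, adjusted p = 2.77e-05). Itgam, the alpha chain of complement receptor 3, fell with IL-4 from 234 to 165 FPKM (-0.50, adjusted p = 0.0134), a call lost without IL-4 replicate 3 (adjusted p = 0.0526). C5ar2, the second C5a receptor, whose gene lies 2589 bases from C5ar1, averaged 4.86 FPKM in control and 0.563 with LPS. Since it reached the filter only in control and IL-4 samples, this is given without a test. Cd93, a surface protein once described as a C1q receptor, fell with LPS from 90.0 to 33.5 FPKM (-1.40, adjusted p = 1.15e-07) and reached 15.1 FPKM with both agents. The LPS calls of Cd59a, Colec12 and Fcna in these lists were lost under quantile normalization, where Fcna turned to 0.09, and the fall of Itgb2 in IL-4+LPS against IL-4 (-0.33) became 0.03 under median scaling.

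**Figure D4:**
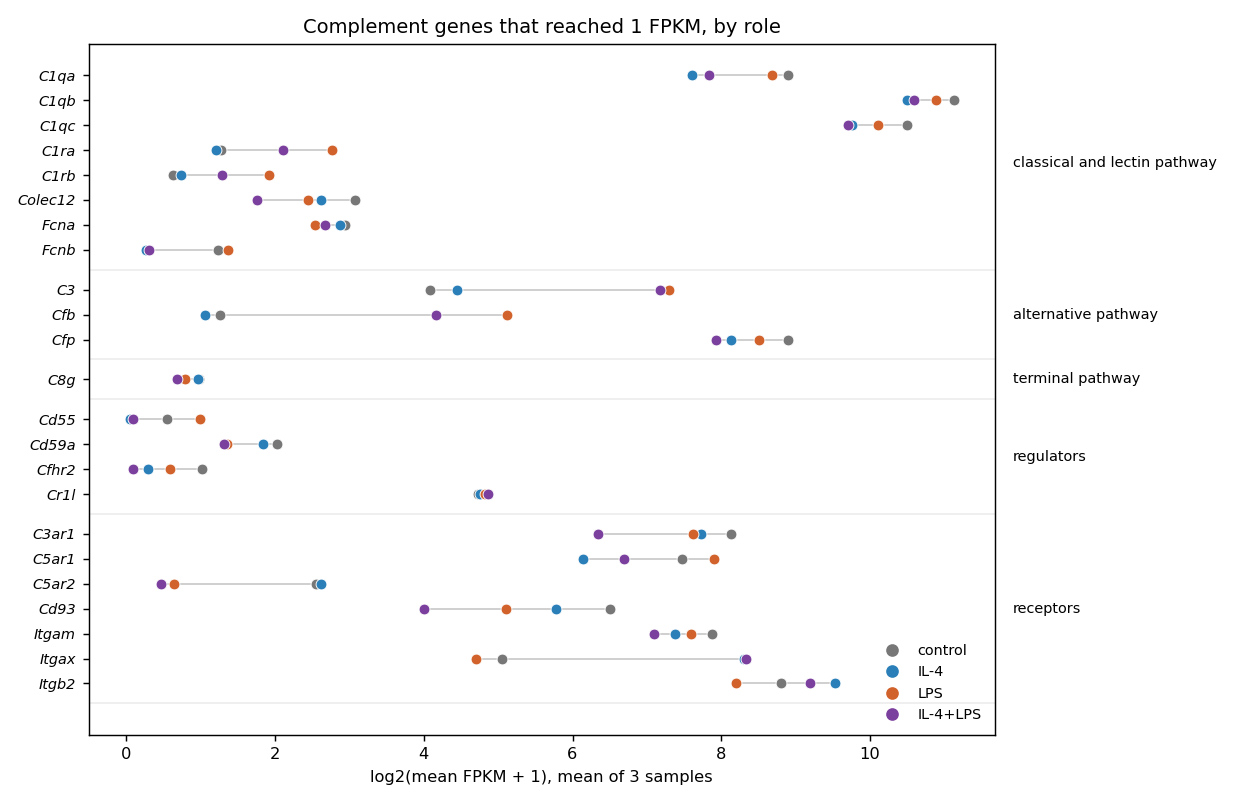
Mean level of the tested complement genes, the 8 members and others of the wider lists, as log2(mean FPKM + 1) of 3 samples (horizontal axis), grouped by role, with 1 coloured point for each group. C1qb, C1qc, Itgb2 and Cfp lie to the right, C3, Cfb and Itgax have the widest spans, and C8g stays below 1 on this axis.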

How the data were processed

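Total RNA from 12 BMDM cultures was made into TruSeq poly-A libraries. The authors deposited 1 table of FPKM values per sample, with a row per gene and its locus in mm10; the submitters' processing notes name TopHat2 2.0.7 and Cufflinks 2.0.2, and the gene annotation is not given in the sources used here. FPKM divides out depth and transcript length, so a few very abundant transcripts or a change in total RNA shift all other genes. No 2 tables were identical. Groups were taken from the labels.

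Rows with at least 1 FPKM in at least 1 sample, the study's own filter, were tested. Values were analysed as log2(FPKM + 1) with limma 3.58.1 in R 4.3.3, with 1 mean per group over all 12 samples, an intensity trend and Benjamini-Hochberg adjustment at 0.05. The code was tested on simulated data. A fold change on this scale understates the change of low genes. Ratios within a sample were compared by exact two-sided permutation tests. The tables give no counts, so no counting interval could be set. Relative depth was read from the most frequent ratio between 2 samples over genes under 0.1 FPKM in both, and 65 of 66 sample pairs fell within 0.05 log2 units of 1 common solution.

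The 8 members were named in every comparison, and further complement genes by the size of their change, at most 4 per list and comparison. For likeness the 3 genes with the highest Pearson r were found for each member and the first is given. Neighbours within 5 kb of a member could be named. Members, lists and tests were chosen with earlier results of these data known. Alternatives covered the pseudocount, filter, scaling, variance model, samples, replicate number and test. Promoter sequences came from RefSeq (GRCm38.p6), and figures were drawn with matplotlib 3.10.9. Some items are not reported here.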

Additional observations from a re-analysis of the deposited data

How the results depend on the processing

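Of 40 member results (8 genes in 5 comparisons) 22 passed the threshold, and 13 of these kept direction and call in all 23 alternatives. They were the IL-4 falls of C1qa, C1qb, C1qc, Cfp and C5ar1, both LPS rises of C3 and of Cfb, the lower C3ar1 with both agents than with either agent, and the lower Cfp and C5ar1 with both agents than with LPS. Outside the fits that left out 1 sample, 371 values kept direction and call, 32 gained the call, 16 lost it and 5 turned; with 1 sample left out the counts were 446, 6, 23 and 5.

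With samples scaled to a common median, 3 members passed in LPS against control rather than 6, C1qa turned to 0.11 and C1qb to 0.13 there, and C1qc turned to 0.31 and Cfp to 0.17 in IL-4+LPS against IL-4; this scaling lifts the LPS samples (factors 1.11 to 1.17) and lowers the others (0.861 to 0.898) by construction. It also gave 2966 rows higher and 4454 lower with LPS, against 1887 and 6462, and 2629 and 4057 in IL-4+LPS against IL-4, against 1682 and 6474; quantile normalization gave 2903 and 4326, and 2461 and 4173, and turned C1qb to -0.056 in the latter comparison. The median row with LPS moved from -0.44 to -0.14 and -0.12 under these scalings.

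With replicates 2 and 3 only, 8 members passed in IL-4 against control rather than 5, where the share of all rows rose from 37% to 50.9%, and 6 rather than 0 passed the interaction, where it rose from 9.2% to 25.6%. There 8 members passed in LPS against control (82.3% of rows), 5 in IL-4+LPS against IL-4 (81.3%) and 7 in IL-4+LPS against LPS (46.9%, 5252 rows rather than 3453). The interaction count was also 3 at an unadjusted p under 0.05, which 2703 of all 11191 tested rows reached. With 1 sample left out, the number of members past the threshold ranged from 4 to 7 in LPS against control, 5 to 6 in IL-4 against control, 4 to 5 in IL-4+LPS against IL-4, 4 to 7 in IL-4+LPS against LPS and 0 to 1 in the interaction, where 1 passed without IL-4+LPS replicate 1 and the rows past the threshold fell from 1030 to 659 without IL-4 replicate 3 and 645 without LPS replicate 3. Over these fits C1qa in IL-4+LPS against IL-4 ran from -0.022 (without IL-4+LPS replicate 1) to 0.50 (without IL-4 replicate 1), C1qc there reached 0.022 (without IL-4+LPS replicate 3), and the C5ar1 interaction ran from -0.036 (without IL-4 replicate 1) to 0.32 (without control replicate 1), with -0.011 and -0.030 without control replicates 2 and 3, none of them called in either state. The cause of these changes was not tested.

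Samples with the same replicate number correlated weakly (mean r of their deviations from the group means 0.12 over 18 pairs, 0.0024 to 0.39, 11 over 0.1), and 9 of 12 samples correlated best with their own number. The same animals may have supplied every group, but the labels do not tie replicate numbers to animals. A fit with a replicate block gave 6 members and 2240 rows past the threshold in the interaction, against 0 and 1030 (20% of rows against 9.2%). It gave 8 members in LPS against control (82% of rows), 6 in IL-4 against control (49.9%), 6 in IL-4+LPS against IL-4 (81.6%) and 7 in IL-4+LPS against LPS (44.3%). Calls gained with the block outside the interaction were C1qa (adjusted p = 0.0164) and C3ar1 (0.0246) with LPS, C3 with IL-4 (0.0227), and C1qa with both agents against IL-4 (0.0246) and against LPS (6.7e-05).

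With 3 samples a group and no counts, the differences in genes near 1 FPKM, such as Cfb in control, are the least certain.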
